A study of Mus musculus with 4 samples.

Results

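The granzymes, perforin and their inhibitors, with the cytotoxic lymphocyte genes Nkg7 and Ctsw, were followed through the lymphocytes of the mouse ovary as 10 genes. They were chosen by name from the 32285 genes of the deposited table: Gzma, Gzmb, Gzmc, Gzmk, Gzmm, Prf1, Nkg7, Ctsw, Serpinb9 and Serpinb6b. The study measured sorted, viable CD45+ leukocytes from the ovary by single-cell RNA sequencing in droplets. The mice were C57BL/6J females of 10 to 12 weeks, taken 48 h after either gonadotropin, which stimulates follicles to grow and ovulate, or saline, a group that the labels call untreated. No transgene, deletion or other agent is named for either group. Each group held 5 mice, marked one by one with hashtag antibodies, pooled and run as 1 library, so treatment and library cannot be told apart. All 10 genes had UMIs (unique molecular identifiers, counted transcript molecules) in the 4918 cells that were kept, and the mouse was the replicate.

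Cytotoxic lymphocytes kill by secreting granules onto a target cell. Perforin, encoded by Prf1, opens pores in the target membrane, and granzymes, a family of serine proteases, enter and start cell death. Granzyme A is a tryptase, granzyme B cleaves after aspartate and activates caspases, granzyme M cleaves after methionine or leucine, and granzymes C and K are further members of the family. Nkg7 is a granule membrane protein needed for full degranulation, and Ctsw is a cathepsin of NK and cytotoxic T cells. Serpinb9 is the intracellular inhibitor of granzyme B that protects killer cells from their own protease, and Serpinb6b is a related serpin known to inhibit granzyme A. NK cells and type 1 innate lymphoid cells (ILC1) are sister lineages, and ILC1 are generally described as less cytotoxic.

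The files hold no cell types, so cells were placed by marker transcripts, none of which is 1 of the 10 genes. This gave 457 NK-gated cells, 61 ILC1-gated cells, 401 Cd8 T, 451 Cd4 T and 179 double-negative T cells, which have Cd3 but neither Cd4 nor Cd8 transcripts and at least 1 innate-like marker, and 1864 B cells as background. A further 186 T cells had none of these markers and were kept apart as unresolved T. Another 31 T cells had both Cd4 and Cd8 transcripts, and 12 cells tied between NK and ILC1. The remaining 1276 cells were left unplaced. The gates held their defining markers by construction, since these transcripts set the gates and so give no separate check of them. In CPM, a gene's UMIs scaled to a fixed total of UMIs in the summed cells, Eomes stood at 266 in NK-gated and 22.0 in ILC1-gated cells, Itga1 at 13.3 and 305, and Cd3e at 0.62 and 1.84. Summed counts per mouse ran from 2559097 to 7097779 UMIs, and the median cell held 6610 UMIs among NK, 8070 among ILC1, 9316 among Cd8 T and 6326 among B cells. A mouse gave 18 to 112 NK cells but 0 to 10 ILC1 cells, and untreated mouse 3 gave none of the latter, so ILC1 values are the least precise. Sums of 2 erythrocyte markers were higher with gonadotropin in NK cells (22.9 to 68.8 CPM against 0 to 23.9), as were 5 myeloid markers (37.2 to 77.2 against 7.96 to 48.3), and Cd8 T cells showed 17.2 to 40.5 against 2.01 to 5.65 for the erythrocyte and 13.9 to 62.6 against 7.58 to 25.4 for the myeloid markers. In Cd4 T cells they stood at 15.2 to 54.6 against 0 to 6.20 (erythrocyte) and 18.2 to 45.7 against 5.95 to 17.9 (myeloid), and in double-negative T cells at 11.7 to 47.8 against 0 to 13.0 and 35.0 to 65.6 against 6.51 to 22.8. Their part in the gonadotropin results below was not tested.

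The stretches just before the annotated gene starts of the 4 genes that turned out to be strongest in NK cells were read from RefSeq (GRCm38.p6) to show what they share. They are written in the direction of transcription, and capitals mark each match to the 6-letter Runx motif TGTGGT or its other strand ACCACA. Runx factors are known regulators of cytotoxic lymphocyte genes. The windows are Gzma at chr13:113100982-113101231 (minus strand), Gzmb at chr14:56262335-56262584 (minus), Prf1 at chr10:61297586-61297750 (plus, 165 bases) and Nkg7 at chr7:43436888-43437137 (plus), the others 250 bases long.
Gzma: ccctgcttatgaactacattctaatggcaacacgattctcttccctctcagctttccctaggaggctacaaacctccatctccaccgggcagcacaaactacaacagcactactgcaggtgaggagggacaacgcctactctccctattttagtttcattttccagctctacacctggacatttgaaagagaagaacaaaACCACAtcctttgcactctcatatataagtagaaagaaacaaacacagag
Gzmb: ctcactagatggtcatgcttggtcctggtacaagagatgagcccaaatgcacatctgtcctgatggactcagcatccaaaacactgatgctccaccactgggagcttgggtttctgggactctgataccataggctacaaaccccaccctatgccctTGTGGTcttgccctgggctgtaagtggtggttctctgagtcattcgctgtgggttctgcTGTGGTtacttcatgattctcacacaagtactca
Prf1: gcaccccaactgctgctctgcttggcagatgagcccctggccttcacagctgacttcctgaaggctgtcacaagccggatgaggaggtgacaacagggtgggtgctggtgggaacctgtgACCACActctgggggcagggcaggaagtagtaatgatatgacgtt
Nkg7: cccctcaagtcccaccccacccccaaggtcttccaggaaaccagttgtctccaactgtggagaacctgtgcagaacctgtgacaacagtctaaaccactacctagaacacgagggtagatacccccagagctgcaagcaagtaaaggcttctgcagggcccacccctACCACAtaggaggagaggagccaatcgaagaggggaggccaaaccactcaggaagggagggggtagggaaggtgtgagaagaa

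Each of these 4 windows holds the Runx letters, and Gzmb holds them at 2 places. Among the 9 members in the table, all but Ctsw, 6 (66.7%) hold the motif, against 3832 of 27025 promoter windows (14.2%). Gzmk, Serpinb9 and Serpinb6b have no match. The T-box letters GGTGTGA, or TCACACC on the other strand, which can overlap the Runx letters at their shared GGT, are in 2 of the 9 (22.2%; Gzmk and Nkg7) against 894 windows (3.31%). A match is only a run of letters and says nothing about binding in these cells.

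The genes lie on 5 chromosomes and partly in clusters. In GRCm38.p6, Gzmb (chromosome 14, 56258836 to 56262334) and Gzmc (56231397 to 56241647) belong to 1 granzyme cluster together with Gzmd, Gzme, Gzmf, Gzmg and Gzmn. Gzma (chromosome 13, 113093824 to 113100981) and Gzmk (113171630 to 113180965) are neighbours in another, and the 2 inhibitor genes Serpinb6b (32956811 to 32979067) and Serpinb9 (32997061 to 33017955) sit side by side elsewhere on chromosome 13. Of the cluster genes next to Gzmc, Gzmf had 2 UMIs and Gzmd, Gzme, Gzmg and Gzmn had 0 in all kept cells. These sequences are close relatives of Gzmc and the handling of reads that fit several genes is not given in the sources used here, so the Gzmc values carry that uncertainty.

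Gzma was overwhelmingly an NK cell transcript. It reached 9768 CPM in NK-gated cells, 747 in ILC1, 147 in double-negative T, 57.0 in Cd8 T and 23.2 in Cd4 T cells, with 1.60 in B cells. UMIs of Gzma were found in 98.0% of NK cells (448 of 457; Clopper-Pearson 95% interval 96.3% to 99.1%, which like all intervals here covers counting error only) but in 23.0% of ILC1 cells (14 of 61; 13.2% to 35.5%), against 1.23% of B cells. NK cells held 93.2% of all Gzma UMIs counted, and 81.4% to 98.4% in single mice. The median NK cell carried 65 Gzma UMIs, with 16 at the 10th and 124 at the 90th percentile.

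**Figure D1:**
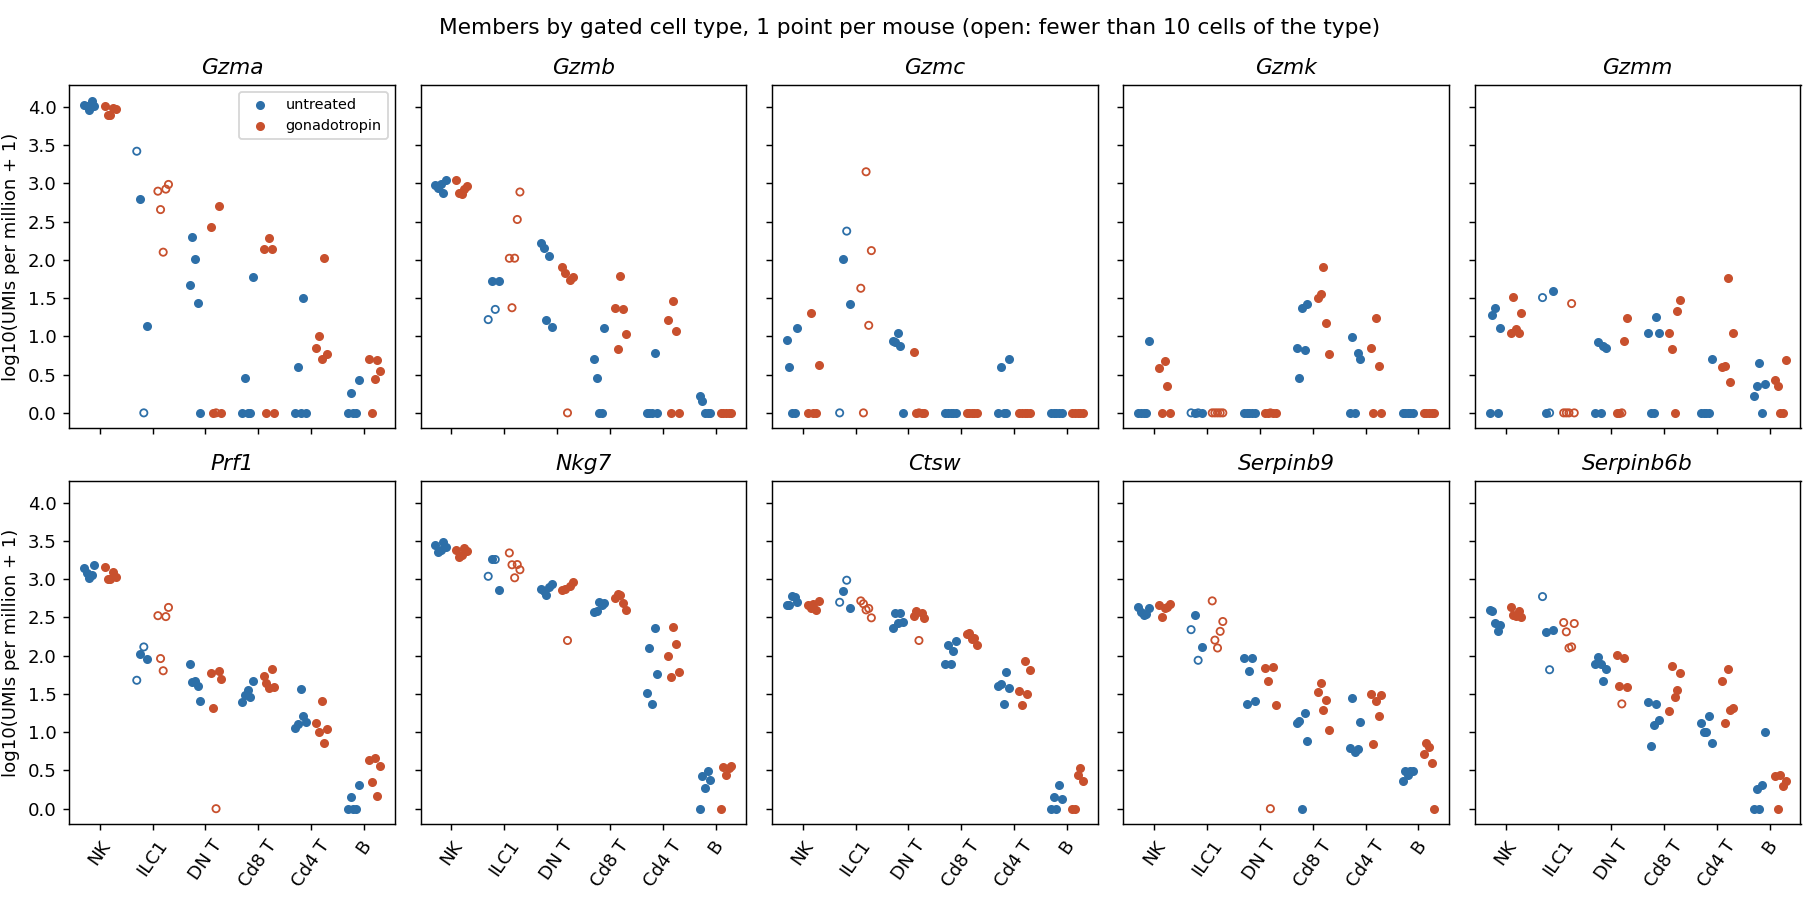
Level of each member as log10(CPM + 1) on the vertical axis, by gated cell type on the horizontal axis. Each point is 1 mouse, blue untreated and red gonadotropin, with open points for mice with fewer than 10 cells of that type. For Gzma all 10 mice sit highest in NK cells (7769 to 12102 CPM), whereas the ILC1 points for Gzmc and the Cd8 T points for Gzmk spread widely and include mice in which another type is higher.

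Gzma in the other lymphocytes rested on few cells. In Cd8 T cells, 24 of 401 cells had any Gzma UMI and the 10 highest held 91.0% of the total. In ILC1, 1 cell of untreated mouse 1 held 162 of the 407 Gzma UMIs (39.8%), and in double-negative T cells 1 cell held 120 of 236. Among the unplaced cells, the tied cells and the T cells with both Cd4 and Cd8, 19 cells had at least 10 Gzma UMIs. They carried 1209 of the 1264 Gzma UMIs found there. Of these 19 cells, 16 had at least 2 UMIs of the NK markers Ncr1 and Klrb1c, 5 reached the B cell and 3 the myeloid limit that kept cells out of the gates.

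Gzmb was NK-rich as well but uneven from cell to cell. It stood at 927 CPM in NK, 173 in ILC1, 70.3 in double-negative T, 12.9 in Cd8 T and 5.59 in Cd4 T cells, and at 0.14 in B cells. A Gzmb UMI was present in 75.3% of NK cells (344 of 457; 71.1% to 79.2%), with a median of 3 UMIs and a maximum of 73 in a cell. In double-negative T cells 18.4% of cells were positive, and the 9 mice with at least 10 such cells ranged from 12.2 to 167 CPM.

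Prf1, the pore former, was nearly universal in NK cells. It was found in 97.4% of NK cells (445 of 457) at 1254 CPM, in 59.0% of ILC1 cells at 180 CPM and in 30.4% of Cd8 T cells at 42.1 CPM, against 0.644% of B cells at 0.975 CPM. Of the NK cells of a mouse, 57.7% to 83.9% carried Prf1 and Gzmb together and 13.9% to 34.6% Prf1 alone, whereas 0 to 5.00% carried Gzmb alone. NK cells supplied 87.2% of all Prf1 UMIs, 77.8% to 94.0% by mouse.

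Nkg7 and Ctsw were spread more widely over the innate and Cd8 T cells. Nkg7 was present in 99.8% of NK, 100% of ILC1 (61 of 61), 83.8% of double-negative T and 87.5% of Cd8 T cells, at 2435, 1428, 753 and 481 CPM, and at 97.3 CPM in Cd4 T cells. NK cells held 61.3% of its UMIs and Cd8 T cells 14.5%. Ctsw stood at 514 CPM in ILC1 and 463 in NK cells, a difference that did not pass the test below, then at 318 in double-negative T, 144 in Cd8 T and 40.3 in Cd4 T cells. NK cells held 46.4% of the Ctsw UMIs, Cd8 T cells 17.3%, double-negative T cells 15.9% and ILC1 8.69%. In B cells Nkg7 was found in 1.13% and Ctsw in 0.536% of cells.

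**Figure D2:**
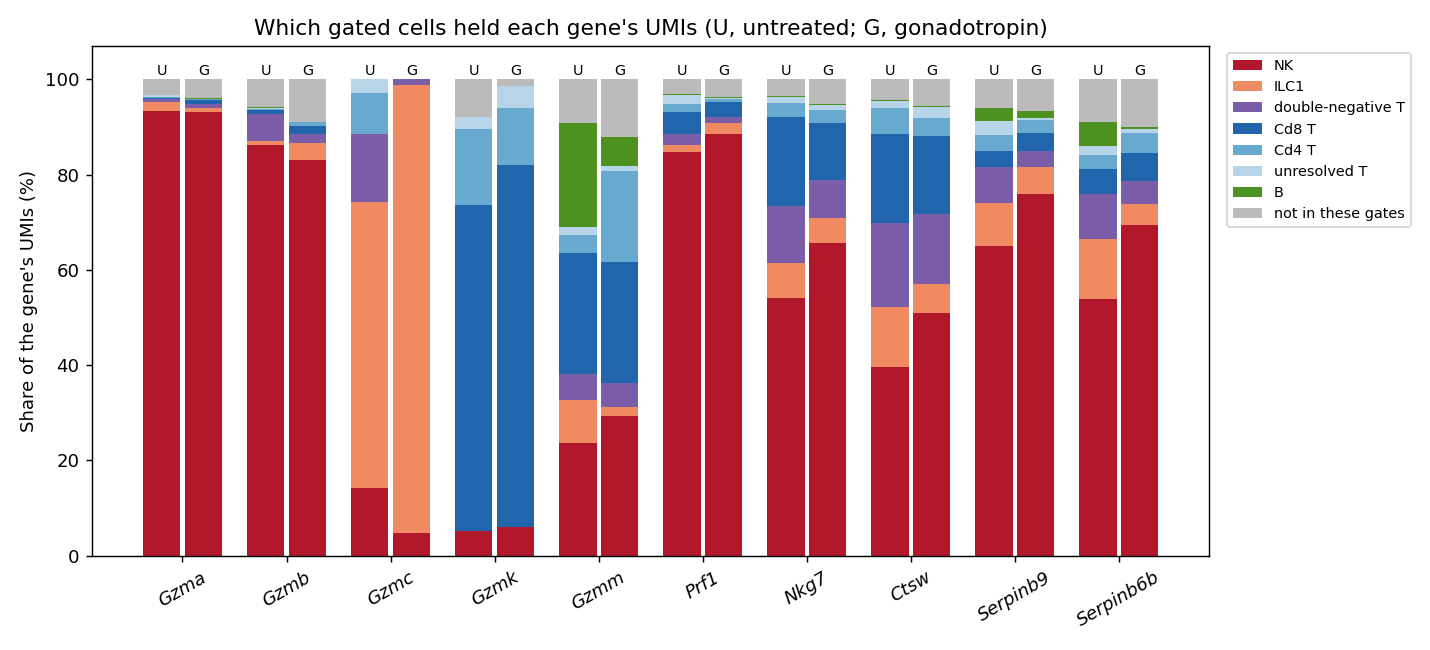
Share of each gene's UMIs (vertical axis, %) held by each gated cell type in untreated (U) and gonadotropin (G) mice, over all kept cells. NK cells hold 93.4% (U) and 93.1% (G) of Gzma, ILC1 hold 60.0% and 94.0% of Gzmc, and Cd8 T cells hold 68.4% and 76.1% of Gzmk.

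Gzmc set the ILC1 apart. Of 119 Gzmc UMIs in all kept cells, 100 (84.0%) lay in the 61 ILC1-gated cells, at 184 CPM against 2.79 in NK, 3.73 in double-negative T and 0.84 in Cd4 T cells. No Gzmc UMI was seen in 401 Cd8 T or 1864 B cells, which allows at most 0.77 and 0.21 CPM. The gonadotropin mice held 2, 0, 68, 1 and 8 Gzmc UMIs in ILC1, and the untreated mice 1, 2, 4 and 5 held 0, 8, 11 and 2. The level was higher in ILC1 than in NK cells of the same mouse in 7 of the 9 mice with ILC1 cells. The gene was too sparse for the fit across genes, so this difference has no test, and 1 cell of gonadotropin mouse 3 held 62 of the 100 UMIs.

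Within the ILC1, Gzmc and Gzma were found in different cells. Gzmc was present in 11 cells from 7 mice, and 0 of these 11 had a Gzma UMI, against 14 of the other 50 (28.0%). The Gzmc cells were not shallower, with a median of 12600 UMIs against 7095.5 in the other cells. They did carry other members: Prf1 was found in 8, Serpinb9 in 10 and Nkg7 in all 11. In NK cells all 7 cells with Gzmc also had Gzma, but so did 98.0% of all NK cells, so these 7 cannot show how the genes relate there. With 11 cells the ILC1 pattern is a description of these cells, not a test.

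**Figure D3:**
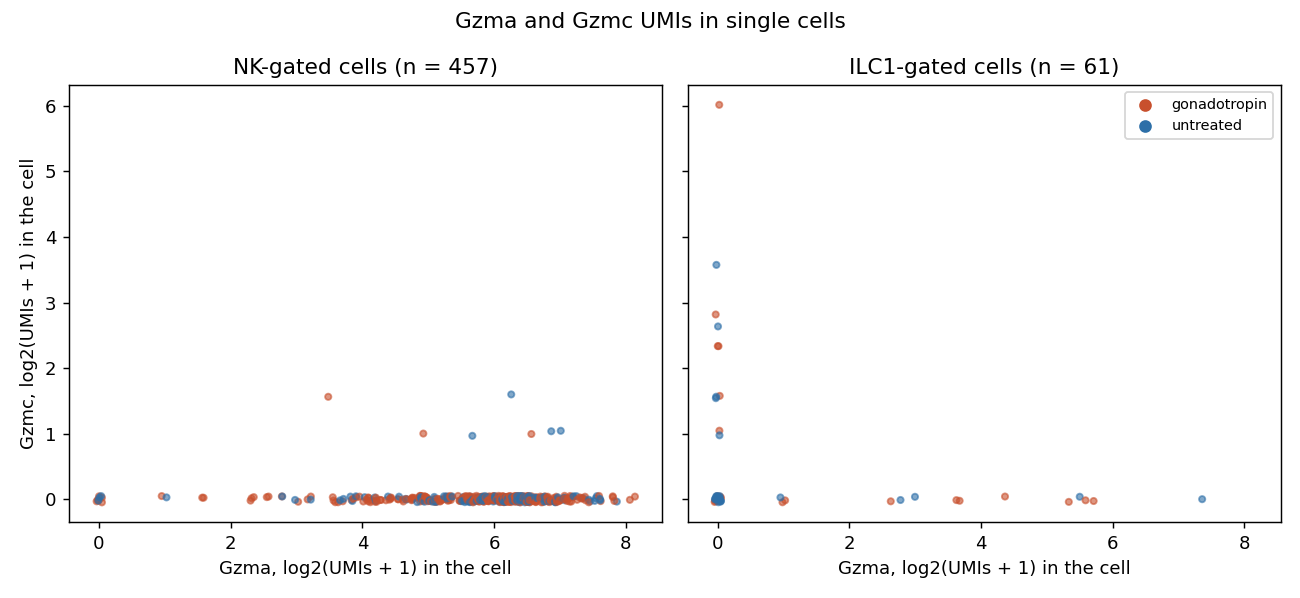
Gzma (horizontal) against Gzmc (vertical) in single cells, each as log2(UMIs + 1), for NK-gated (left, 457 cells) and ILC1-gated cells (right, 61 cells), coloured by treatment with slight jitter. The 11 ILC1 cells with Gzmc lie on the vertical axis at 0 Gzma, and the 14 with Gzma lie at 0 Gzmc.

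Gzmk belonged to a small set of Cd8 T cells. It stood at 19.9 CPM in Cd8 T cells, with 22 of 401 cells positive, and at 3.91 in Cd4 T and 1.86 in NK cells. No UMI was found in ILC1 or double-negative T cells, which allows at most 5.51 and 1.87 CPM. Cd8 T cells held 73.3% of the 105 Gzmk UMIs. Gzmm was low everywhere, between 4.97 and 13.0 CPM in the 5 lymphocyte types and 1.25 in B cells, so no type stood out for it at this depth.

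By CPM the inhibitors had the same order of the 5 lymphocyte types as Gzma, Gzmb, Prf1 and Nkg7. Serpinb9 stood at 418 CPM in NK, 229 in ILC1, 54.1 in double-negative T and 18.1 in Cd8 T cells. Serpinb6b stood at 358, 235, 70.3 and 26.3 in the same order. B cells held 2.51 and 2.44 CPM. Among NK cells, Serpinb9 was found in 85.5% of the cells with a Gzmb UMI (294 of 344) and in 61.1% of those without (69 of 113), at median depths of 6508.5 and 6925 UMIs. Cells are not replicates, so this is given without a test.

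NK and ILC1 cells were then compared within mice. In the 2 mice with at least 10 cells of both types, untreated mice 2 and 5, NK cells were higher in 4 of 7 tested members. These were Gzma, Gzmb, Prf1 and Nkg7 (edgeR quasi-likelihood test with Benjamini-Hochberg adjustment). Of 3674 genes 5.55% passed, and 2.42% were higher in NK cells. No gonadotropin mouse entered this fit. With the 8 mice that had at least 5 cells of both, a limit chosen after the data were seen, 6 of 7 members passed. All were higher in NK cells, against 12% of 2074 genes in either direction and 6.17% higher. The filter on low counts kept genes abundant in either type. Gzmb was left out of the fit within ILC1, so it entered here through its NK counts and its direction was largely set beforehand. The count of members is therefore no support by itself. Gzmc, which stood higher in ILC1, was not tested here. Gzma differed by 4.46 ± 0.36 (log2 fold ± SE; edgeR adjusted p = 2.89e-09), Prf1 by 2.65 ± 0.24, Gzmb by 2.46 ± 0.36, Serpinb9 by 0.82 ± 0.22, Serpinb6b by 0.80 ± 0.19 and Nkg7 by 0.68 ± 0.14 (edgeR adjusted p at most 0.0129). Ctsw had a difference of −0.13 ± 0.16 (edgeR adjusted p = 0.718). With 2 mice the values were larger for Gzma (5.13), Gzmb (4.28) and Prf1 (3.83). DESeq2 then called Gzmb and Prf1 only, where 36 of 3674 genes passed.

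Between NK and Cd8 T cells all 7 tested members passed, each higher in NK cells, where 49.3% of 4529 genes passed and 25.1% were higher (edgeR, 10 mice). Gzma, Gzmb, Serpinb9 and Serpinb6b entered through their NK counts, as the filter left them out within Cd8 T cells. Their direction was therefore largely set beforehand, and the count of members is no support by itself. Gzmc, Gzmk and Gzmm were not tested, and Gzmk stood higher in Cd8 T than in NK cells (19.9 against 1.86 CPM). The differences ran from 7.26 ± 0.34 for Gzma through 5.81 ± 0.23 for Gzmb, 4.59 ± 0.11 for Prf1, 4.15 ± 0.19 for Serpinb9 and 3.37 ± 0.20 for Serpinb6b to 2.02 ± 0.09 for Nkg7 and 1.42 ± 0.13 for Ctsw (log2 fold ± SE). Of these 7, Gzma and Gzmb stood furthest apart and Nkg7 and Ctsw least. The share of genes that differ between these types is itself large.

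Among T cells only Nkg7 and Ctsw were abundant enough to be tested between types. Cd8 T cells exceeded Cd4 T cells by 2.40 ± 0.17 for Nkg7 and 1.85 ± 0.16 for Ctsw (edgeR adjusted p at most 2.91e-11; 13.5% of 4651 genes passed, 7.31% higher). Double-negative T cells exceeded Cd8 T cells by 0.52 ± 0.10 for Nkg7 and by 1.03 ± 0.12 for Ctsw (edgeR adjusted p = 0.000396 and 1.9e-07; 25.9% of 3325 genes passed, 12.9% higher). With mice of at least 20 cells the Nkg7 difference was 0.40 and did not pass (edgeR adjusted p = 0.127).

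Maturation markers divided the NK cells, which were called late when Itgam, Klrg1, S1pr5 and Zeb2 outweighed Cd27, Emb, Ltb and Il7r (408 cells) and early in the reverse case (39 cells). Late NK cells held 10684 Gzma CPM against 2703 in early ones, 1012 against 267 for Gzmb and 1336 against 533 for Prf1. Serpinb9 stood at 436 against 267, and Ctsw at 466 against 436. In the 3 mice with at least 5 cells of both, late cells were higher in Gzma (1.60 ± 0.20), Gzmb (1.27 ± 0.25), Serpinb9 (1.23 ± 0.30) and Prf1 (1.14 ± 0.21; edgeR adjusted p at most 0.0321), where 1.17% of 2746 genes passed and 0.838% were higher. Nkg7 (0.32 ± 0.18), Serpinb6b (0.85 ± 0.29) and Ctsw (−0.07 ± 0.26) did not pass (edgeR adjusted p = 0.537, 0.161 and 0.964). This comparison rests on the limit of 5 cells, chosen after the data were seen. Its 3 mice were all of the gonadotropin group, since no untreated mouse had more than 4 early NK cells. Without gonadotropin mouse 4 the number of members that passed was 0, without gonadotropin mouse 1 there were 2 and without gonadotropin mouse 3 there were 3.

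The effect of gonadotropin was read first over all CD45+ cells of a mouse. Prf1 stood at 265, 60.0, 118, 157 and 138 CPM in gonadotropin mice 1 to 5 and at 53.0, 88.5, 69.8, 66.0 and 69.1 in untreated mice 1 to 5. Gonadotropin mouse 2 lay within the untreated range and the other 4 above it. In the same mice NK-gated cells made up 16.5%, 5.29%, 13.8%, 13.5% and 12.6% of the cells after gonadotropin and 3.96%, 7.08%, 8.18%, 6.08% and 4.96% in untreated mice, so gonadotropin mouse 2 was low in both. Other cell types moved as well. B cells hold almost no member transcript. They made up 30.1% ± 3.64 of the cells with gonadotropin and 43.1% ± 5.88 in untreated mice (SD, n = 5 each), without overlap. The unplaced cells made up 25.2% to 37.6% against 19.0% to 27.0%. A pooled level reads these shares together with the level in each cell, and the levels within NK cells are given separately further on.

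Over all cells 6 of 8 tested members were higher with gonadotropin, where 9.12% of 11266 genes passed and 4.97% were higher (edgeR, 5 mice per group). Serpinb9 (1.11 ± 0.24) and Serpinb6b (1.08 ± 0.22), the 2 inhibitors, passed with adjusted p of 0.0148 and 0.0114 (edgeR) along with Gzmb, Prf1, Nkg7 and Ctsw. Gzma (0.95 ± 0.30) and Gzmm (0.96 ± 0.29) did not pass (edgeR adjusted p = 0.0620 and 0.0540). The calls were near the threshold. Leaving out gonadotropin mouse 1, 4 or 5 or untreated mouse 1, 3 or 5 left 2 calls, leaving out gonadotropin mouse 3 or untreated mouse 2 or 4 left 4, and leaving out gonadotropin mouse 2 gave 8. Serpinb9 and Serpinb6b passed in each of these 10 fits.

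Without the NK-gated cells, an analysis added after the data were seen, 3 of 8 members were higher (7.26% of 11009 genes passed, 4.12% higher): Prf1 (0.76 ± 0.16), Nkg7 (0.46 ± 0.11) and Serpinb6b (0.65 ± 0.18; edgeR adjusted p = 0.0148, 0.0276 and 0.0467). Prf1 in these cells stood at 19.2, 13.9, 20.9, 20.9 and 25.8 CPM with gonadotropin and at 12.0, 12.1, 12.6, 12.3 and 9.13 in untreated mice, with no overlap. The same shift in B cells and in unplaced cells is part of this reading, and its share in the result was not tested. Cells outside the NK gate included some with NK markers and Gzma, as given above.

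Within NK cells no member passed. Gzma stood at 10292, 7769, 7943, 9692 and 9273 CPM in gonadotropin mice 1 to 5 and at 10601, 10347, 9108, 12102 and 10422 in untreated mice 1 to 5. The ranges overlap, and 2 gonadotropin mice lie below all untreated ones. The difference was −0.24 ± 0.07 for Gzma (edgeR adjusted p = 0.257), −0.22 ± 0.08 for Nkg7, −0.21 ± 0.11 for Ctsw, −0.12 ± 0.11 for Prf1 and −0.11 ± 0.11 for Gzmb, and 0.25 ± 0.14 for Serpinb6b and 0.14 ± 0.12 for Serpinb9 (edgeR adjusted p at least 0.257 for all 7). In these cells 0.0646% of 4641 genes passed, and 383 had an unadjusted p under 0.05, among them Gzma and Nkg7. DESeq2 called 6 genes, none of them a member.

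**Figure D4:**
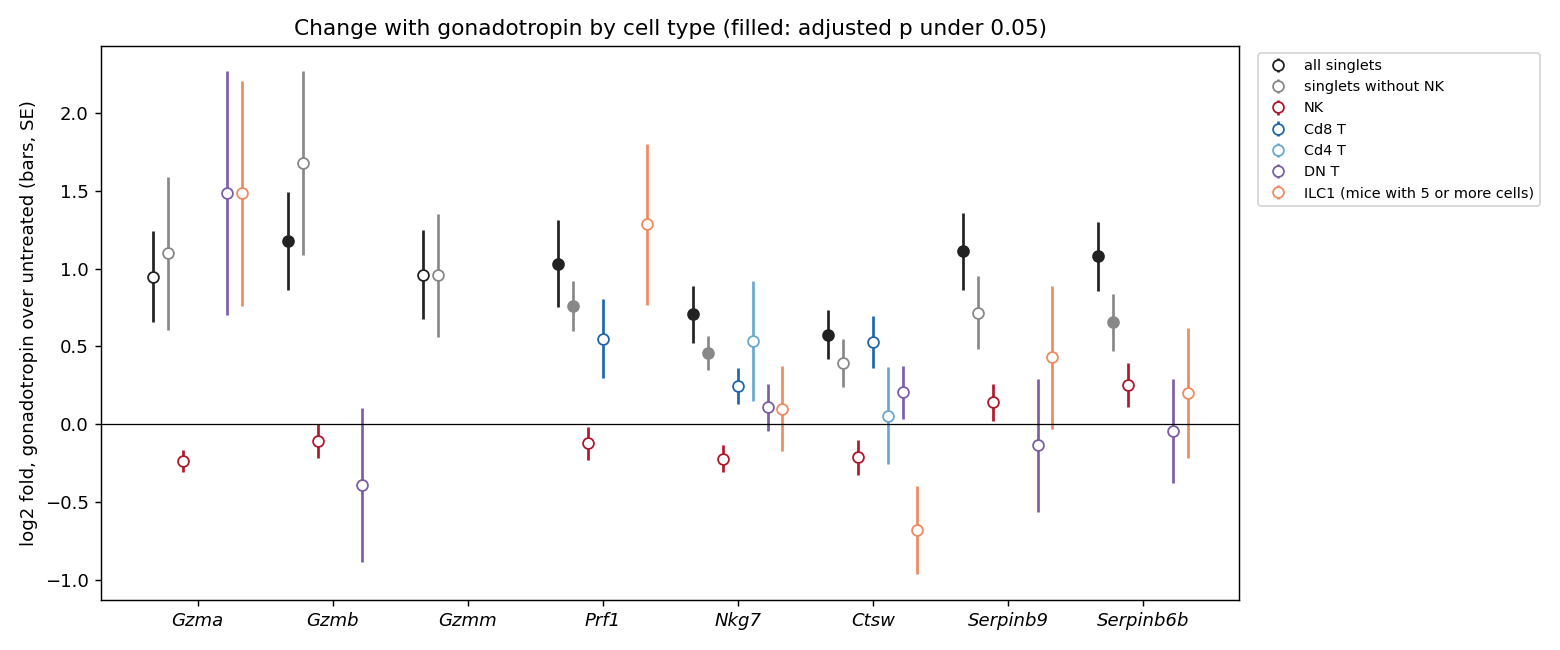
Log2 fold of gonadotropin over untreated (vertical axis) with its SE, derived from the F statistic, for each member that could be tested (horizontal axis). It is shown for all cells, all cells without NK cells, and each gated type. Filled points passed an adjusted p of 0.05. Filled points occur in the 2 pooled readings only, and the NK values lie between −0.24 and 0.25.

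In Cd8 T cells the 3 testable members lay above 0 and none passed. Ctsw stood at 189.8, 199.8, 167, 167 and 135 CPM in gonadotropin mice 1 to 5 and at 76.2, 138, 75.8, 113 and 152 in untreated mice. Of the gonadotropin mice 4 lay above every untreated mouse and mouse 5 lay within their range. Its difference was 0.53 ± 0.17 (edgeR adjusted p = 0.0946; 0.0336 without untreated mouse 5), with Prf1 at 0.55 ± 0.25 and Nkg7 at 0.24 ± 0.12 (edgeR adjusted p = 0.341 and 0.369), where 2.13% of 5066 genes passed. Without a filter on low counts Gzma, Gzmb and Serpinb6b, which the filter had left out, passed, where 158 of 15466 genes did. Gzma there rests on 24 of 401 cells, and the 10 highest held 91.0% of its UMIs.

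The share of Cd8 T cells with a Ctsw UMI, with each cell thinned to 2000 UMIs, was 26.9% ± 2.50 with gonadotropin and 18.1% ± 4.29 in untreated mice (SD, n = 5 each), from 23.2% to 30.2% and from 13.5% to 22.4%. The groups did not overlap, and the exact two-sided permutation test gave p = 0.00794, the smallest it allows. Over the 38 such tests of members and types the adjusted p was 0.302, and no share passed. The share with Serpinb9 in Cd8 T cells was 4.46% against 1.86% (exact permutation p = 0.0397) and with Serpinb6b 6.25% against 2.91% (exact permutation p = 0.0317). In Cd4 T cells Gzmm stood at 2.04% ± 2.79 against 0.134% ± 0.300 (SD, exact permutation p = 0.0317). Gonadotropin mouse 3 held 14 of the 21 Gzmm UMIs in Cd4 T cells, where 10 of 451 cells were positive. For Serpinb9, Serpinb6b and Gzmm alike the exact permutation test gave an adjusted p of 0.345.

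The remaining types gave no call. In double-negative T cells (9 mice, since gonadotropin mouse 3 had 4 cells) 0 of 6 members passed and 0% of 3242 genes (edgeR; 158 at an unadjusted p under 0.05). Gzma there stood at 266, 0, 501 and 0 CPM in gonadotropin mice 1, 2, 4 and 5 and at 45.6, 200.4, 102, 26.0 and 0 in untreated mice, so that 2 mice of each group carried most of it. In Cd4 T cells Nkg7 (0.53 ± 0.39) and Ctsw (0.05 ± 0.31) did not pass, where 0.0849% of 4710 genes did. In ILC1, with 5 gonadotropin and 3 untreated mice of at least 5 cells, Prf1 (1.28 ± 0.52), Gzma (1.48 ± 0.72) and Ctsw (−0.68 ± 0.28) did not pass (edgeR adjusted p at least 0.52), nor did any of 1184 genes (93 at an unadjusted p under 0.05). The limit of 5 cells left out untreated mouse 1, whose 3 ILC1 cells included the 1 with 162 Gzma UMIs. Over all ILC1 cells Gzma had 188 UMIs in 32 gonadotropin cells and 219 in 29 untreated cells, so the direction of its difference depends on that limit.

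The change in NK cells was set against that in Cd8 T cells as an interaction. The difference lay below 0 for all 7 members, at −2.63 ± 0.63 for Gzma and −2.24 ± 0.56 for Gzmb, and none passed (edgeR adjusted p at least 0.0644; 0.272% of 5513 genes passed). The median over the 7 was −1.15, against 0.00 over all genes. Gzma, Gzmb, Serpinb9 and Serpinb6b entered through their NK counts, as the filter left them out within Cd8 T cells. The count of signs is therefore no support by itself. For Gzma the Cd8 T side rests on few cells: it stood at 139, 0, 189.7, 139 and 0 CPM with gonadotropin and at 0, 1.84, 0, 0 and 59.2 in untreated mice. For Gzmb it rests on 50 UMIs in 19 of 401 Cd8 T cells, and 1 cell of gonadotropin mouse 3 held 13 of them. Leaving out gonadotropin mouse 2 or untreated mouse 5 gave 2 calls and leaving out gonadotropin mouse 5 gave 1. Without a filter on low counts there were 2, Gzma and Gzmb, where 35 of 16983 genes passed.

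A list of 27 further genes of the granule pathway was read in the same fits. Between NK and Cd8 T cells 10 of 13 tested were higher and 1 lower in NK cells, where 49.3% of all genes passed and 25.1% were higher. The higher ones were the Serpinb9 relative Serpinb9b (8.09 ± 0.42), the death ligand Fasl (3.25 ± 0.20), the cathepsin inhibitor Cst7 (1.61 ± 0.16), Rab27a, which docks granules at the membrane (0.87 ± 0.18), Lamp2 (0.77 ± 0.20), the granule priming factor Unc13d (0.74 ± 0.23), Ctsc, which activates granzymes (0.64 ± 0.13), the fusion protein Vamp8 (0.63 ± 0.14), the granule proteoglycan Srgn (0.41 ± 0.08) and Lamp1 (0.32 ± 0.13), while the lysosome trafficking gene Lyst was lower (−1.38 ± 0.14). The median over the 13 was 0.64, against 0.02 over all genes. Between NK and ILC1 in mice with at least 5 cells, where 12% of all genes passed, 2 of 7 were higher in NK cells, Cst7 (0.77 ± 0.25) and Fasl (0.62 ± 0.20), and 2 lower, Lyst (−1.86 ± 0.23) and Srgn (−0.45 ± 0.12), at a median of 0.23 against −0.02. In the fit with 2 mice 3 of 12 passed, against 5.55% of all genes: Lyst was lower (−2.30 ± 0.35), Serpinb9b was higher (7.09 ± 1.59) and Tnfsf10, which encodes the death ligand TRAIL, lower in NK cells (−3.34 ± 0.55). Serpinb9b had 310 of its 319 UMIs in NK cells and 0 in ILC1, so it entered these fits through its NK counts and its direction was set beforehand. Fasl and Unc13d, also left out within Cd8 T cells, entered the NK and Cd8 T fit in the same way. Cst7 and Fasl were left out of the fit within ILC1, so they entered the NK and ILC1 fits through their NK counts. Tnfsf10 was left out within NK cells and entered through its ILC1 counts. The directions of Cst7, Fasl and Tnfsf10 there were therefore largely set beforehand, and these calls are no support by themselves.

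In the T cell comparisons Ctsc was higher in Cd8 than in Cd4 T cells (0.73 ± 0.17) and Rab27a (−0.68 ± 0.15) and Vamp8 (−0.45 ± 0.15) lower, 3 of 9 tested, where 13.5% of all genes passed, at a median of −0.19 against 0.00. Double-negative T cells exceeded Cd8 T cells in 5 of 9, where 25.9% of all genes passed and 12.9% were higher: Fasl (2.02 ± 0.24), Lyst (1.20 ± 0.14), Rab27a (0.79 ± 0.19), Vamp8 (0.61 ± 0.19) and Srgn (0.53 ± 0.09). Fasl entered that fit through double-negative T cells, as the filter left it out within Cd8 T cells. Late NK cells were lower than early ones in Lyst (−2.09 ± 0.35, 3 gonadotropin mice), 1 of 9, where 1.17% of all genes passed. With gonadotropin no gene of the list passed within NK, Cd8 T, Cd4 T, double-negative T or ILC1 cells (15, 10, 10, 10 and 3 tested, edgeR). Over all cells, where 9.12% of all genes passed and 4.97% were higher, 5 of 21 were higher, Cst7 (0.66 ± 0.16), Fasl (0.64 ± 0.18), Stx11, a syntaxin of granule fusion (0.61 ± 0.17), Rab27a (0.55 ± 0.09) and Serpinb6a (0.29 ± 0.08), and the elastase inhibitor Serpinb1a was lower (−0.38 ± 0.10). Without NK-gated cells, where 7.26% passed and 4.12% were higher, 2 of 20 were higher, Rab27a (0.47 ± 0.09) and Serpinb6a (0.35 ± 0.09).

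The genes whose levels were most like each member were named over 41 sums of a type in a mouse, 10 each of NK, Cd8 T and Cd4 T, 9 of double-negative T and 2 of ILC1, among 7697 genes. These sums share libraries and mice, and differences between types dominate them, so Pearson's r is a description. Gzma was most like Itgam (0.90), which is a gate marker of NK cells, Gzmb like Lgals1 (0.93), Prf1 like Ostf1 (0.94), Nkg7 like the chemokine Ccl5 (0.96) and Ctsw like Peak1 (0.95). Serpinb9 was most like Tpm4 (0.93) and Serpinb6b like the gate marker Klrb1c (0.92). Gzmk was most like Slc6a19 (0.74) and then Cd8a (0.72), while Gzmc (0.66, D8Ertd738e) and Gzmm (0.58, Rai1) had no gene as close.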

How the data were processed

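The authors deposited raw UMI counts for 6468 barcodes of both libraries. Per the submitters' processing notes they used bcl2fastq, Cell Ranger, Seurat and the build mm10, without versions. Hashtag calls, of the unit "other", were the authors'. Of 5031 single-hashtag barcodes, 4918 had 500 genes or more and a mitochondrial share below 10%, and these were used, and hashtag doublets were left out; 4 barcode sequences occur in both libraries. T cells needed at least 2 UMIs of Cd3 transcripts, and NK and ILC1 cells at least 2 of Ncr1 and Klrb1c. At least 1 UMI of Cd8, Cd4 or innate-like markers then named the T cell type. The larger sum of NK or ILC1 markers separated those 2 types. B cells needed at least 3 UMIs of B cell markers. CPM are UMIs scaled to plain totals of the cells concerned. Sums per mouse (at least 10 cells) were fitted with edgeR 4.0.16 in R 4.3.3 (TMM, filterByExpr, quasi-likelihood F test, Benjamini-Hochberg over all genes, 0.05), within mice with the mouse as a term, and DESeq2 1.42.0 was an alternative. The SE of an edgeR log2 fold was taken as the size of the fold divided by the square root of its F statistic. Shares thinned to 2000 UMIs were compared by exact permutation. The procedure was tested on simulated data. The members, the list of 27 genes and the markers were chosen with earlier results of these data known. All members and every list gene past the threshold are named. For genes most like a member, 3 were taken by Pearson's r and the first is printed, with a further one for Gzmk. P-values measure only the spread between these mice, and mouse numbers are only names. A planned comparison of Cd8 T subsets is not reported here.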

Additional observations from a re-analysis of the deposited data

How the results depend on the processing

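The number of members called stayed within 1.5 times in 90 fits that left out 1 mouse and moved further in 17, and stayed so in 41 of 50 other settings. Without a filter on low counts it was 3 in Cd8 T (gonadotropin against untreated), where 158 of 15466 genes passed. It was 1 in Cd4 T (49 of 15440 genes) and 1 in double-negative T (75 of 14207). For Cd8 against Cd4 T it was 6 (874 of 16953), and for double-negative against Cd8 T 7 (1367 of 16332). For the interaction it was 2 (35 of 16983). In these the cause was not tested. DESeq2 gave 2 for NK against ILC1 (36 of 3674 genes). A gate of at least 1 UMI gave 5 for double-negative against Cd8 T cells (953 of 3470). Leaving out the NK-gated cells gave 3 over all cells (799 of 11009). With 1 mouse left out, calls ran from 0 to 1 in Cd8 T and ILC1, from 2 to 8 over all cells, from 2 to 3 for Cd8 against Cd4 T, from 2 to 4 for double-negative against Cd8 T, from 0 to 2 for the interaction and from 0 to 3 for late against early NK cells; they stayed at 7 for NK against Cd8 T, 6 for NK against ILC1 in mice with at least 5 cells, and 0 in NK, Cd4 T and double-negative T cells. Counts over all genes that moved more were 6 (DESeq2) and 22 (no filter) against 3 in NK, 49 (no filter) against 4 in Cd4 T, 75 (no filter) against 0 in double-negative T, 36 (DESeq2) against 204 for NK and ILC1, 3646 (no filter) against 2231 for NK and Cd8 T, 396 (DESeq2) against 627 for Cd8 and Cd4 T, 1367 (no filter) and 480 (mice with at least 20 cells) against 860 for double-negative and Cd8 T, and 9 (DESeq2), 35 (no filter) and 7 (mice with at least 20 cells) against 15 for the interaction; with 1 mouse left out they ran from 44 to 111 in Cd8 T, 0 to 7 in Cd4 T, 2 to 7 in NK, 682 to 1063 over all cells, 7 to 24 for the interaction and 1 to 25 for late against early NK. With a gate of at least 1 UMI, differences that were not called changed sign in double-negative T cells for Serpinb9 (0.092) and Gzmb (0.90) and between NK and ILC1 for Ctsw (0.10). With 1 mouse left out, some differences changed sign, none of them called: they ran in ILC1 from −0.24 to 0.31 for Nkg7 and from −0.10 to 0.44 for Serpinb6b, in Cd4 T cells from −0.23 to 0.22 for Ctsw, in double-negative T cells from −0.28 to 0.13 for Serpinb6b and from −0.37 to 0.087 for Serpinb9, and between late and early NK cells from −0.27 to 0.35 for Ctsw. Shares of cells with a UMI gave 0 calls in each setting. The NK subset comparison and the ILC1 change could not be fitted at 10 or 20 cells and are given at 5, so their other planned settings were not run. No paired analysis was possible because mouse numbers pair no mice across groups. ILC1 numbers and sparse counts of Gzmc, Gzmk and Gzmm limit what depth can show.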
